A study of Homo sapiens with 10 samples.

Results

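The 10 genes described here are the Notch receptors NOTCH1, NOTCH2, NOTCH3 and NOTCH4, the ligands DLL1, DLL4, JAG1 and JAG2, and the target genes HEY1 and HES1. They were chosen by symbol, matched through the Ensembl identifier to GENCODE release 44, and all 10 were found among the 60448 genes of the count table. Notch is a signaling pathway between touching cells, in which a membrane-bound ligand of the Delta or Jagged family on 1 cell pulls on a Notch receptor of its neighbour. The receptor is then cut by an ADAM protease and by γ-secretase, and its intracellular domain enters the nucleus, binds the DNA-binding protein RBPJ with a Mastermind co-activator and switches on HES and HEY genes, which encode transcriptional repressors. In the endothelium the pathway is known for arterial identity, for the choice between tip and stalk cells in sprouting vessels and for the contact with mural cells.

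The study compared 2 immortalized human endothelial cell lines used as in vitro models, and mRNA of untreated cells was sequenced with 5 replicates per line. EA.hy926 is a hybrid of umbilical vein endothelial cells with the A549 lung carcinoma line and was grown in Advanced DMEM with 5% FBS. HMEC-1 derives from microvascular endothelial cells of the skin, immortalized with the SV40 large T antigen, and was grown in MCDB 131 with 10% FBS, hydrocortisone at 1 µg/mL and epidermal growth factor at 10 ng/mL. Both media also held L-glutamine, gentamicin and penicillin. All samples are labelled WT, none was treated, and the confluent cells were detached with trypsin before RNA extraction. As each line had its own medium, line and medium cannot be told apart in any difference below. The study's methods describe the replicates of each line as independent biological ones, while the labels give only replicate numbers, and p-values measure the spread between these samples. In RNA from whole cultures, fewer cells of a type and less RNA per cell cannot be told apart.

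Total counts ranged from 34846046 to 39899324 in EA.hy926 (median 38651528) and from 33391640 to 43877224 in HMEC-1 (median 38952554). Levels are given as CPM, the counts per 1000000 counts of the library after scaling by TMM factors, and only where genes are compared with each other as RPKM, the CPM per kilobase of merged exons. A log2 fold change (log2FC) above 0 means a higher level in EA.hy926. A gene passed the test at an adjusted p under 0.05, and it was called where the absolute log2FC was also over 1, the thresholds the study used. Of 16310 genes tested, 85.8% passed the test, 42.6% with a higher and 43.3% with a lower level in EA.hy926, and the median log2FC was -0.01. Both lines were checked against 20 endothelial marker genes, of which all 20 were tested, 13 were called higher and 2 lower in EA.hy926 (19.1% and 16.4% of all genes tested), with a median log2FC of 1.53. The summed CPM of these markers was 6632 to 7433 in EA.hy926 against 2292 to 2359 in HMEC-1, and ENG, a co-receptor of the TGF-β family, was the most abundant per length in both lines. EMCN, which encodes endomucin and was chosen after its values were seen, had 0 to 2 counts in EA.hy926, compared with 678 to 844 in HMEC-1. EMCN and CLDN5 (0 to 5 counts in EA.hy926) were the 2 called lower. Both entered the test only through HMEC-1, which fixed their direction. Among the 13 called higher, ERG, chosen after its values were seen, had a log2FC of 1.01. It fell under the threshold on size with scaling by library totals alone (0.87), with no count filter (0.99) and without HMEC-1 replicate 1, 3, 4 or 5.

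All 10 Notch genes passed the test, 6 with a higher level and 4 with a lower level in EA.hy926. Beside the 85.8% of all genes that passed, this count does not set the 10 genes apart. With both thresholds, 6 of the 10 were called, DLL1, DLL4 and HEY1 as higher and NOTCH3, NOTCH4 and JAG2 as lower in EA.hy926, while 35.5% of all genes tested were called, 19.1% as higher and 16.4% as lower. Scaled by library totals alone, this balance turned from 3110 higher and 2674 lower to 2809 higher and 3085 lower, and the 6 calls among the Notch genes remained 3 higher and 3 lower. The CPM ranges of the lines did not overlap for any of the 10 genes, as was the case for 77.4% of all genes tested. The median log2FC of the 10 genes was 0.32. Changes above and below 0 occurred within the receptors, within the ligands and within the targets.

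**Figure D1:**
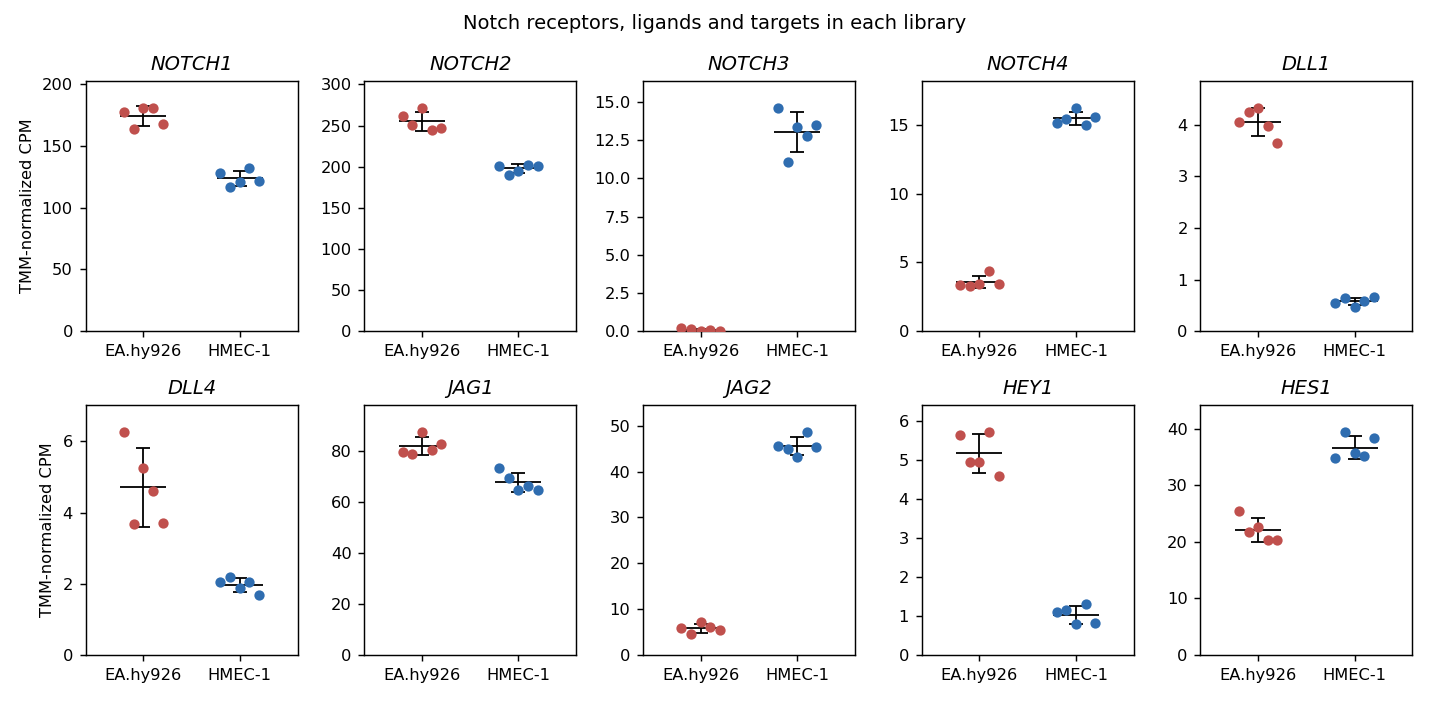
CPM of the 10 Notch genes in each of the 5 EA.hy926 and 5 HMEC-1 libraries. Each point is 1 library, the long line marks the mean and the error bars the SD. The points of the lines do not overlap for any gene, and the widest gap in fold is that of NOTCH3, with 0 to 7 counts in EA.hy926.

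Among the receptors, NOTCH1 and NOTCH2 were the abundant ones in both lines, and NOTCH3 and NOTCH4 were found mainly in HMEC-1. NOTCH1 (ENSG00000148400, GRCh38 chromosome 9, 136494433 to 136546048, minus strand), the receptor most studied in arterial endothelium, stood at 174 ± 7.93 CPM in EA.hy926 versus 124 ± 6.20 CPM in HMEC-1 (SD, n = 5 each). Its log2FC was 0.49 (SE 0.035, adjusted p = 2.6e-11, edgeR quasi-likelihood test with Benjamini-Hochberg adjustment). NOTCH2 (ENSG00000134250, chromosome 1, 119911553 to 120100779, minus strand) stood at 255 ± 11.2 CPM and 198.0 ± 5.10 CPM, with a log2FC of 0.37 (SE 0.030, adjusted p = 2.1e-10 in the same edgeR fit). Both therefore passed the test and remained under the threshold on size.

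The human genome holds partial copies of NOTCH2, the NOTCH2NL genes, which can share reads with it. NOTCH2NLA had 40 to 62 counts in EA.hy926, compared with 69 to 109 in HMEC-1, and the other copies were not analysed here. The sum of NOTCH2 and NOTCH2NLA gave a log2FC of 0.36, close to that of NOTCH2 alone.

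NOTCH3 (ENSG00000074181, chromosome 19, 15159038 to 15200995, minus strand), best known as the receptor of mural cells, had 7, 4, 0, 2 and 1 counts in the EA.hy926 libraries and 513, 452, 616, 521 and 516 counts in the HMEC-1 libraries. The highest EA.hy926 library thus had 7 counts and the lowest HMEC-1 library 452. The mean level was 0.0777 ± 0.0768 CPM in EA.hy926 versus 13.1 ± 1.30 CPM in HMEC-1 (SD, n = 5 each), and the log2FC was -7.34 (SE 0.20, adjusted p = 1.5e-18, edgeR), where the low EA.hy926 counts make the size of the fold imprecise and the gene passed the count filter through HMEC-1. When single libraries were left out, the log2FC lay between -7.97 and -7.03.

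Genes of mural cells differed in both directions between the lines, and those of fibroblasts were lower in EA.hy926. Of 14 mural genes, NOTCH3 included, 10 were tested, 9 passed (85.8% of all genes), 2 were called higher and 6 lower in EA.hy926 (19.1% and 16.4% of all genes), and the median log2FC was -3.48. Of the 6 called lower, NOTCH3, CNN1 and CSPG4 passed the count filter only through HMEC-1, which fixed their direction. In EA.hy926 they had 0 to 7, 0 to 3 and 6 to 10 counts. The summed CPM of the mural list was 509.7 to 562.3 in EA.hy926, where the regulator of G-protein signaling RGS5 was the most abundant per length, and 688.4 to 702 in HMEC-1, where the adhesion molecule MCAM was. The potassium channel genes ABCC9 and KCNJ8 were barely counted in either line, ABCC9 with 0 counts in EA.hy926 and 0 to 1 in the HMEC-1 libraries and KCNJ8 with 0 to 2 and 0 counts. RGS5 stood at 429.7 ± 23.5 CPM in EA.hy926 and 5.05 ± 0.221 CPM in the HMEC-1 libraries (log2FC 6.41), and the smooth muscle actin gene ACTA2 was also higher in EA.hy926 (log2FC 2.68). PDGFRB, the PDGF receptor of pericytes, went the other way and had 27 to 39 counts in EA.hy926, compared with 830 to 1093 in HMEC-1. Of 10 fibroblast genes, 6 were tested and all 6 were called lower in EA.hy926, beside 16.4% of all genes, with a median log2FC of -8.13 and a summed CPM of 0.234 to 0.485 in EA.hy926 against 458.5 to 484.9 in HMEC-1. Of these 6 genes 5 had at most 3 counts in any EA.hy926 library, and COL1A1 had 7 to 15. All 6 passed the count filter only through HMEC-1, which fixed their direction. The collagen gene COL1A1 was the most abundant of these in both lines, DCN, LUM and DPT were at 0 in every library, and PDGFRA was at 0 in EA.hy926. ACTA2 and PDGFRB were chosen after their values were seen. The part of such cells or programs in the NOTCH3 difference was not tested.

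NOTCH4 (ENSG00000204301, chromosome 6, 32194843 to 32224067, minus strand), a receptor found mostly in endothelial cells, stood at 3.33, 3.25, 3.41, 4.34 and 3.45 CPM in the EA.hy926 libraries. The HMEC-1 libraries were at 15.2, 15.4, 16.2, 15 and 15.6 CPM. Every HMEC-1 library was above every EA.hy926 library, with 1 EA.hy926 library, replicate 4, standing above the other four. The log2FC was -2.12 (SE 0.071, adjusted p = 4.2e-17, edgeR), a level 4.34-fold lower in EA.hy926.

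Measured per length, NOTCH2 and NOTCH1 led the receptors in both lines, with 15.2 and 13.9 RPKM in EA.hy926 and 11.8 and 9.88 RPKM in HMEC-1. The summed RPKM of the 4 receptors was 29.5 ± 1.11 in EA.hy926, compared with 24.7 ± 0.835 in HMEC-1 (SD, n = 5 each), with ranges of 28.4 to 31.0 and 23.4 to 25.5 that did not overlap. Of this sum, NOTCH3 made 0.0281% ± 0.0273 (0.0185% without replicate 1) in EA.hy926 against 5.62% ± 0.443 in HMEC-1, and NOTCH4 made 1.24% ± 0.160 and 6.44% ± 0.355. NOTCH1 and NOTCH2 together thus made nearly all receptor mRNA in EA.hy926 and most of it in HMEC-1.

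The ligands comprised JAG1, which was abundant in both lines, JAG2, which was lower in EA.hy926, and DLL1 and DLL4, which were higher there. JAG1 (ENSG00000101384, chromosome 20, 10637684 to 10673999, minus strand), the Jagged ligand of sprouting endothelium, ranged from 79.0 to 87.7 CPM in EA.hy926, and from 64.6 to 73.3 CPM in HMEC-1. Its log2FC of 0.28 (SE 0.037, adjusted p = 5.1e-07, edgeR) was the smallest in size of the 10 genes.

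JAG2 (ENSG00000184916, chromosome 14, 105140982 to 105168824, minus strand), the second Jagged ligand, had 219, 149, 249, 233 and 200 counts in EA.hy926. In HMEC-1 it had 1604, 1831, 1993, 1989 and 1736 counts. All HMEC-1 libraries were far above all EA.hy926 libraries, at a mean of 45.6 ± 2.03 CPM against 5.79 ± 0.953 CPM (SD, n = 5 each). The log2FC was -2.97 (SE 0.070, adjusted p = 7.0e-20, edgeR), the largest in size among the 10 genes that had at least 10 counts in every library, and exons of other genes cover 7.33% of its exonic bases.

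DLL1 (ENSG00000198719, chromosome 6, 170282206 to 170306565, minus strand), a Delta ligand, went the other way. It had 150, 141, 152, 153 and 135 counts in EA.hy926 and 19, 26, 22, 24 and 25 counts in HMEC-1, so the lowest EA.hy926 library was well above the highest HMEC-1 library. The mean level was 4.05 ± 0.270 CPM against 0.579 ± 0.0722 CPM, with a log2FC of 2.80 (SE 0.13, adjusted p = 1.3e-14, edgeR). Exons of another gene, FAM120B, cover 9.69% of its exonic bases.

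DLL4 (ENSG00000128917, chromosome 15, 40929340 to 40939073, plus strand), the Delta ligand of tip cells and arteries, stood at 6.28, 3.67, 5.26, 4.60 and 3.72 CPM in EA.hy926. The HMEC-1 libraries were at 2.05, 2.18, 1.885, 2.06 and 1.67 CPM. The ranges did not overlap, and the EA.hy926 libraries were the more spread, with replicates 1 and 3 the highest. The coefficient of variation of DLL4 in EA.hy926 was 23.4%, while the median was 10.4% over 634 genes of a similar mean level. The log2FC was 1.26 (SE 0.14, adjusted p = 4.2e-08, edgeR), and in a test against a log2FC of 1 (glmTreat of edgeR) the adjusted p was 0.0383.

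The summed RPKM of the 4 ligands was lower in EA.hy926, at 11.8 ± 0.636 against 14.98 ± 0.564 in HMEC-1 (SD, n = 5 each), with ranges of 11.1 to 12.8 and 14.2 to 15.6. In EA.hy926 JAG1 made 74.9% ± 2.17 of the sum, followed by DLL1 with 9.02% ± 0.624, DLL4 with 8.38% ± 1.73 and JAG2 with 7.66% ± 0.889. In HMEC-1 JAG1 made 48.6% ± 1.53 and JAG2 47.6% ± 1.57, with DLL4 at 2.77% ± 0.225 and DLL1 at 1.01% ± 0.126. The closeness of JAG1 and JAG2 in HMEC-1 depends on the gene length used. With the length of the longest annotated transcript in place of merged exons, their shares were 56.9% and 39.5%. In EA.hy926 that length put DLL4 at 7.94%, above DLL1 at 6.22% and JAG2 at 5.79%.

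**Figure D2:**
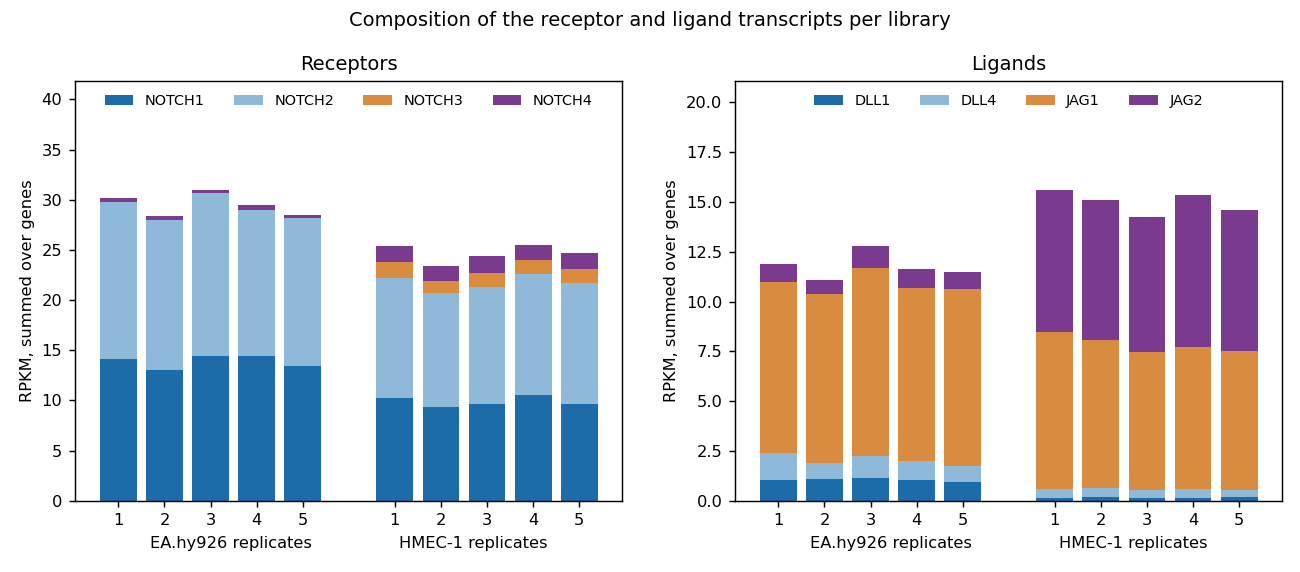
RPKM of the receptors (left) and ligands (right), stacked per library for the 5 replicates of each line. The JAG2 block is thin in the EA.hy926 libraries (mean 7.66% of the ligand sum) and about as tall as that of JAG1 in HMEC-1 (47.6% and 48.6%).

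The target genes also moved in opposite directions. HEY1 (ENSG00000164683, chromosome 8, 79762371 to 79767857, minus strand), a repressor induced by Notch in arterial endothelium, was at 5.63, 4.94, 4.95, 5.72 and 4.58 CPM in EA.hy926. In HMEC-1 it was at 1.11, 1.15, 0.780, 1.30 and 0.811 CPM. Every EA.hy926 library was above every HMEC-1 library, and the log2FC was 2.33 (SE 0.13, adjusted p = 5.3e-13, edgeR), a level 5.02-fold higher.

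HES1 (ENSG00000114315, chromosome 3, 194136148 to 194138732, plus strand), the repressor that most tissues induce in response to Notch and that other signals induce as well, had 943, 724, 796, 784 and 756 counts in EA.hy926. In HMEC-1 it had 1223, 1614, 1645, 1433 and 1465 counts. The HMEC-1 libraries were the higher ones without overlap, at 36.7 ± 2.10 CPM against 22.1 ± 2.12 CPM (SD, n = 5 each). Its log2FC was -0.73 (SE 0.055, adjusted p = 6.3e-11, edgeR) and stayed under the threshold on size.

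**Figure D3:**
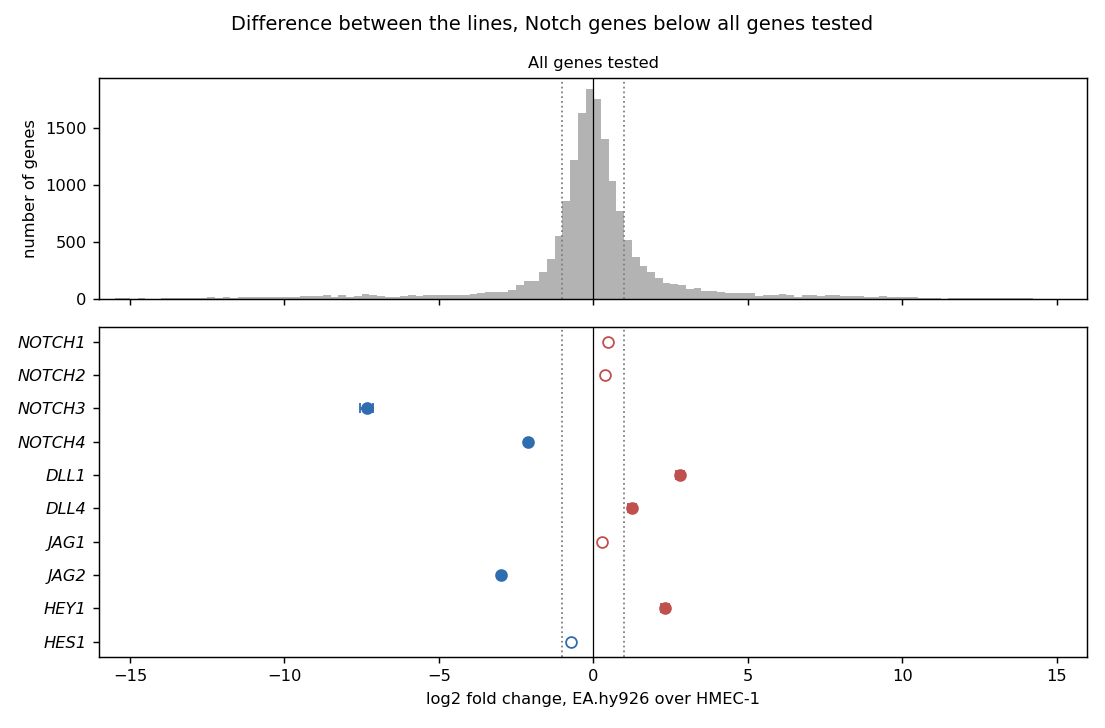
Number of genes by log2FC (EA.hy926 over HMEC-1) for all 16310 genes tested (top), and the log2FC of the 10 Notch genes with error bars of 1 SE (bottom). Filled circles were called past both thresholds and open circles were not, and dotted lines mark a log2FC of 1 in each direction. DLL1, DLL4 and HEY1 lie beyond the upper line and NOTCH3, NOTCH4 and JAG2 beyond the lower one.

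Ordered per length, the EA.hy926 levels of the 10 genes fell into an abundant group of NOTCH2, NOTCH1, HES1 and JAG1, from 15.2 down to 8.81 RPKM, and a low group of DLL1, DLL4, HEY1 and JAG2, from 1.06 down to 0.905 RPKM, followed by NOTCH4 at 0.365 RPKM and NOTCH3 at 0.00826 RPKM. Within the low group the ranges of neighbouring genes overlapped over the 5 libraries. In HMEC-1 the order was HES1 at 17.8 RPKM, NOTCH2, NOTCH1, JAG1 at 7.28 RPKM, JAG2 at 7.13 RPKM, NOTCH4 at 1.59 RPKM, NOTCH3 at 1.39 RPKM, DLL4 at 0.414 RPKM, HEY1 at 0.188 RPKM and DLL1 at 0.152 RPKM. The pairs JAG1 and JAG2, NOTCH4 and NOTCH3, and HEY1 and DLL1 had overlapping ranges there. On merged exon length, JAG2 thus overlapped JAG1 in HMEC-1 and HEY1 in EA.hy926.

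Of 13024 protein-coding genes, the 3 whose log2 CPM followed JAG2 most closely over the 10 libraries were the receptor tyrosine kinase genes FGFR1 and DDR2 and the receptor ligand gene GAS6, each with a Pearson r of 0.999. In all, 1374 genes had an r over 0.99 with JAG2, since the points are the libraries of 2 lines that differ in most genes.

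The promoters of the Notch targets are shown because RBPJ binds the sequence GTGGGAA, and a pair of such sites facing each other is the known arrangement in the HES1 promoter. The windows below were taken from RefSeq promoters (GRCh38.p14, each running from 250 bases before to 50 bases after the start of the transcript) and are printed 5′ to 3′ on the strand of the gene. Capitals mark GTGGGAA or its reverse complement TTCCCAC and, in HES1 and HES4, also TTCACAC, the reverse complement of a sequence that differs by a single base from GTGGGAA. The windows lie at chr3:194136027-194136106 (plus strand) for HES1, chr1:1000131-1000210 (minus) for HES4, chr6:125749383-125749462 (plus) for HEY2 and chr1:39639778-39639857 (minus) for HEYL. HES4, HEY2 and HEYL encode further repressors of the HES and HEY families.
HES1: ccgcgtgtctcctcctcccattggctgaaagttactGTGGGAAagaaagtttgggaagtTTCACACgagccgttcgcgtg
HES4: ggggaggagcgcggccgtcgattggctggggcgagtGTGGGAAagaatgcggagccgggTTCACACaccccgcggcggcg
HEY2: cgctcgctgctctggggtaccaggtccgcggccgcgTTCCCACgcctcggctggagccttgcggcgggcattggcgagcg
HEYL: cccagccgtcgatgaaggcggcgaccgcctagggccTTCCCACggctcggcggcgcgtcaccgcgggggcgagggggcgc

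GTGGGAA or TTCCCAC was found in 6.25% of 35116 RefSeq promoters of this length. Of the 10 Notch genes, 8 were matched in the table and only HES1 held it, starting 85 bases before the transcript start, with DLL1 and HEY1 not matched. Of 24 genes listed as targets, HES1 and HEY1 included, 14 were matched and HES1, HES4, HES5, HEY2, HEYL and CXCR4, 6 in all, held it in at least 1 promoter. Counted by gene in this way, it was held by 7.62% of the 27305 genes in the table and by 5 of the 51 other pathway genes matched. GTGGGAA followed after 16 bases by TTCACAC was found in 2 of the 35116 promoters, those of HES1 and HES4, a pair chosen after these sequences were read. The HEY2 and HES5 promoters each held 2 matches. In HEY2 the second, GTGGGAA starting 4 bases before the transcript start, lies outside the printed window. A match is a description of letters and not a measured site.

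Beyond HES1 and HEY1, 22 further genes listed as targets were examined, TMEM100, SOX17 and SOX18 among them. Whether each gene responds to Notch in these lines was not measured. Of the 22 genes, 18 were tested for a difference, 7 passed with a higher and 10 with a lower level in EA.hy926, and 4 were called higher and 10 lower. Of all genes 85.8% passed, 19.1% were called higher and 16.4% lower. Their median log2FC was -2.07, beside -0.01 over all genes tested. NRARP, a Notch target that restrains the pathway, had 61 to 88 counts in EA.hy926 against 901 to 1134 in HMEC-1, which gave a log2FC of -3.62 (SE 0.068, adjusted p = 1.6e-21, edgeR). HEYL was not counted in any EA.hy926 library and had 28 to 40 counts in HMEC-1, at least 9.81-fold lower against a floor of 3 counts per library (adjusted p = 2.1e-10, edgeR). HEY2, the arterial HEY gene, had 0 to 1 counts in EA.hy926, compared with 34 to 43 in HMEC-1 (adjusted p = 1.3e-11, edgeR). Thus HEY1 was higher and both other HEY genes lower in EA.hy926.

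EFNB2, the arterial ephrin ligand, had 0 to 4 counts in EA.hy926 against 1350 to 1802 in HMEC-1 (adjusted p = 4.1e-23, edgeR), with 36.4% of its exonic bases covered by another annotated gene. TMEM100, an endothelial membrane protein gene, was at 0 in all EA.hy926 libraries and had 351 to 419 counts in HMEC-1, at least 107-fold lower. SNAI2, a repressor of epithelial genes, was at 0 in EA.hy926 and had 90 to 129 counts in HMEC-1, at least 31.2-fold lower. These 3 genes, HEYL and HEY2 had at most 4 counts in any EA.hy926 library and passed the count filter only through HMEC-1, which fixed their direction.

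Of the targets called higher in EA.hy926, CCND1, which encodes cyclin D1 and has many other inputs, was the highest, at 760 ± 18.7 CPM against 114 ± 4.26 CPM (SD, n = 5 each), with a log2FC of 2.73 (SE 0.029). The chemokine receptor gene CXCR4 had 28 to 41 counts in EA.hy926, compared with 4 to 12 in HMEC-1, which gave a log2FC of 2.27 (SE 0.27), and SOX18, an endothelial transcription factor gene, had a log2FC of 1.65 (SE 0.059). DTX1, counted also with the degradation genes, was the fourth. CXCR4 and DTX1 (0 to 8 counts in HMEC-1) passed the count filter only through EA.hy926, which fixed their direction.

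Other called targets were named after their values were seen. HES4, whose promoter window is printed with that of HES1, stood at 1.78 ± 0.287 CPM in EA.hy926 versus 19.8 ± 0.707 CPM in HMEC-1, with a log2FC of -3.46 (SE 0.078, adjusted p = 3.7e-20, edgeR). The guidance receptor gene UNC5B had a log2FC of -4.97, SOX17, an arterial transcription factor gene, -2.07 and HES6 -2.06. HES5 had 0 counts in EA.hy926, compared with 0 to 3 in HMEC-1 and was not tested.

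**Figure D4:**
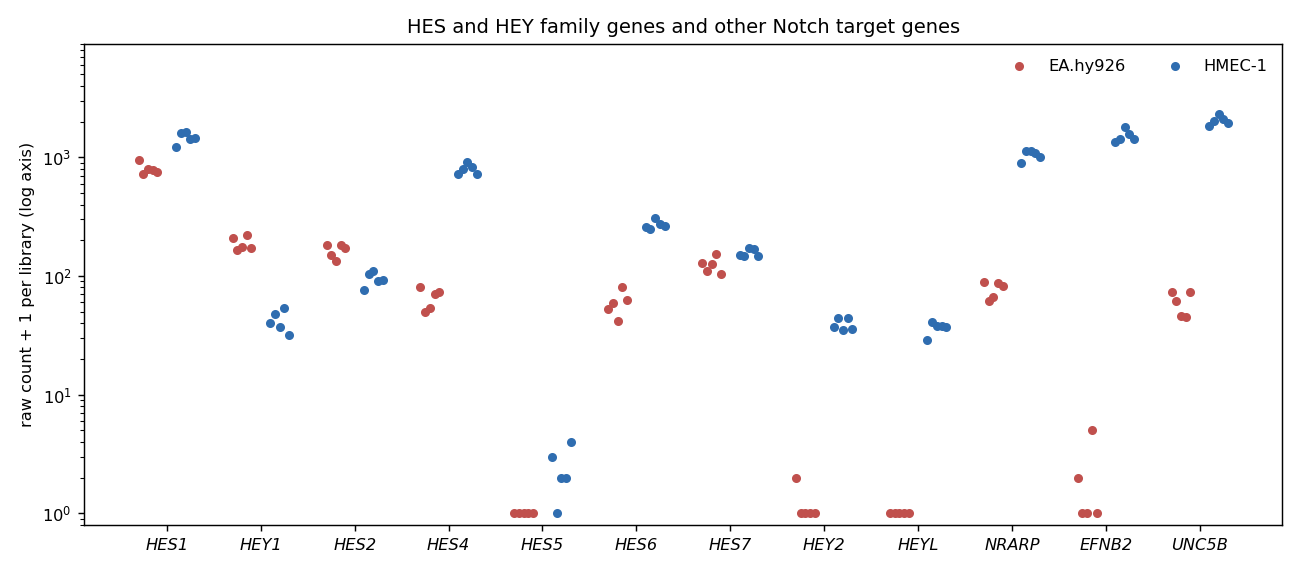
Raw counts plus 1 of HES and HEY genes and other Notch targets in each of the 5 EA.hy926 and 5 HMEC-1 libraries, on a log axis, where a gene without counts lies at 1. Each point is 1 library. HEY1 lies higher in EA.hy926, while HES4, HEY2, HEYL, NRARP and EFNB2 lie higher in HMEC-1.

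In all, 82 further genes of the pathway were listed by role, targets included, and 73 of them were tested. Of these 30 passed with a higher and 38 with a lower level in EA.hy926, 25 were called (12 higher and 13 lower), a share near the 35.5% of all genes, and the median log2FC was -0.16. With library totals 9 were called higher and 14 lower. The counts by role follow, and no difference between roles was tested.

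Among the nuclear complex genes, 9 of 9 passed and 2 were called, beside 85.8% and 35.5% of all genes. RBPJ itself stood at 76.5 ± 2.12 CPM in EA.hy926 versus 100.1 ± 1.85 CPM in HMEC-1, with a log2FC of -0.39 (SE 0.027, adjusted p = 1.5e-11, edgeR). The co-activator gene MAML1 had a log2FC of -0.99 (SE 0.029), just under the threshold. It was past it with library totals (-1.12), with no count filter (-1.01) and without HMEC-1 replicate 2, 3 or 4 (-1.0052 to -1.0031). Its relative MAML3 had a log2FC of 1.38 (SE 0.070). KAT2A, an acetyltransferase gene, was called with a log2FC of 1.03 (SE 0.048), which was 0.90 with library totals and then under the threshold.

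Of 9 cleavage genes 8 passed and 1 was called, beside 85.8% and 35.5% of all genes. ADAM10, the protease that cuts ligand-bound receptors, had a log2FC of -0.41 (adjusted p = 4.4e-13, edgeR). ADAM17, the related protease, had 61.6 ± 1.68 CPM in EA.hy926, compared with 63.9 ± 1.79 CPM in HMEC-1 and did not pass (log2FC -0.05, SE 0.030, adjusted p = 0.107, edgeR), though it passed with library totals (log2FC -0.19, adjusted p = 4.1e-06) and without HMEC-1 replicate 1 (adjusted p = 0.0204). The γ-secretase subunit gene PSENEN was called with a log2FC of 1.06 (SE 0.14), with 52.2% of its exonic bases covered by other genes, and it fell under the threshold with library totals (0.92) and without HMEC-1 replicate 5 (0.94).

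The Fringe glycosyltransferases modify Notch receptors and shift their response from Jagged to Delta ligands. LFNG stood at 18.1 ± 1.29 CPM in EA.hy926 versus 8.17 ± 0.684 CPM in HMEC-1 (SD, n = 5 each), with a log2FC of 1.15 (SE 0.064, adjusted p = 2.9e-13, edgeR), and was the only one called of 8 glycosylation genes tested, beside 35.5% of all genes. MFNG, the most abundant Fringe gene per length in both lines with 22.1 RPKM in EA.hy926, compared with 16.4 RPKM in HMEC-1, passed with a higher level at 67.0 ± 3.26 CPM against 49.6 ± 1.79 CPM. RFNG had a log2FC of -0.40, with 21.6% of its exonic bases covered by other genes.

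Of 3 other ligands, DLL3, a Delta protein that acts mostly inside the cell, had 0 to 6 counts in EA.hy926 against 50 to 80 in HMEC-1, which gave a log2FC of -3.99 (SE 0.31, adjusted p = 8.8e-11, edgeR). DLL3 passed the count filter only through HMEC-1, which fixed its direction, and the low EA.hy926 counts make its fold imprecise. DLK2, a non-canonical ligand, had a log2FC of -1.01 (SE 0.17), which lay between -0.98 and -0.88 and under the threshold without EA.hy926 replicate 1, 3 or 5. Of 12 co-repressor genes tested 11 passed (85.8% of all genes), and only L3MBTL3, which encodes a chromatin reader that binds RBPJ, was called (35.5% of all genes), at 65.3 ± 1.499 CPM against 8.57 ± 0.757 CPM and a log2FC of 2.94 (SE 0.047, adjusted p = 8.9e-23, edgeR).

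Of 16 trafficking and degradation genes tested, 8 passed with a higher and 6 with a lower level, and 5 were called, near the 85.8% and 35.5% of all genes. The called genes that were higher in EA.hy926 all belong to the Deltex family of ubiquitin ligases. Their log2FC was 2.50 (SE 0.053) for DTX3, 2.35 (SE 0.051) for DTX4, 1.75 (SE 0.38) for DTX1, which had 11 to 18 counts in EA.hy926, compared with 0 to 8 in HMEC-1, and 1.11 (SE 0.047) for DTX3L, which was 0.97 with library totals. DTX2, the other Deltex gene tested and chosen after its values were seen, did not pass (log2FC 0.05, adjusted p = 0.480, edgeR). NEURL1B, a ubiquitin ligase gene of the Neuralized family that acts on ligands, had 0 to 2 counts in EA.hy926 against 558 to 874 in HMEC-1 (adjusted p = 1.3e-20, edgeR). NEURL1B passed the count filter only through HMEC-1 and DTX1 only through EA.hy926, which fixed their direction.

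**Figure D5:**
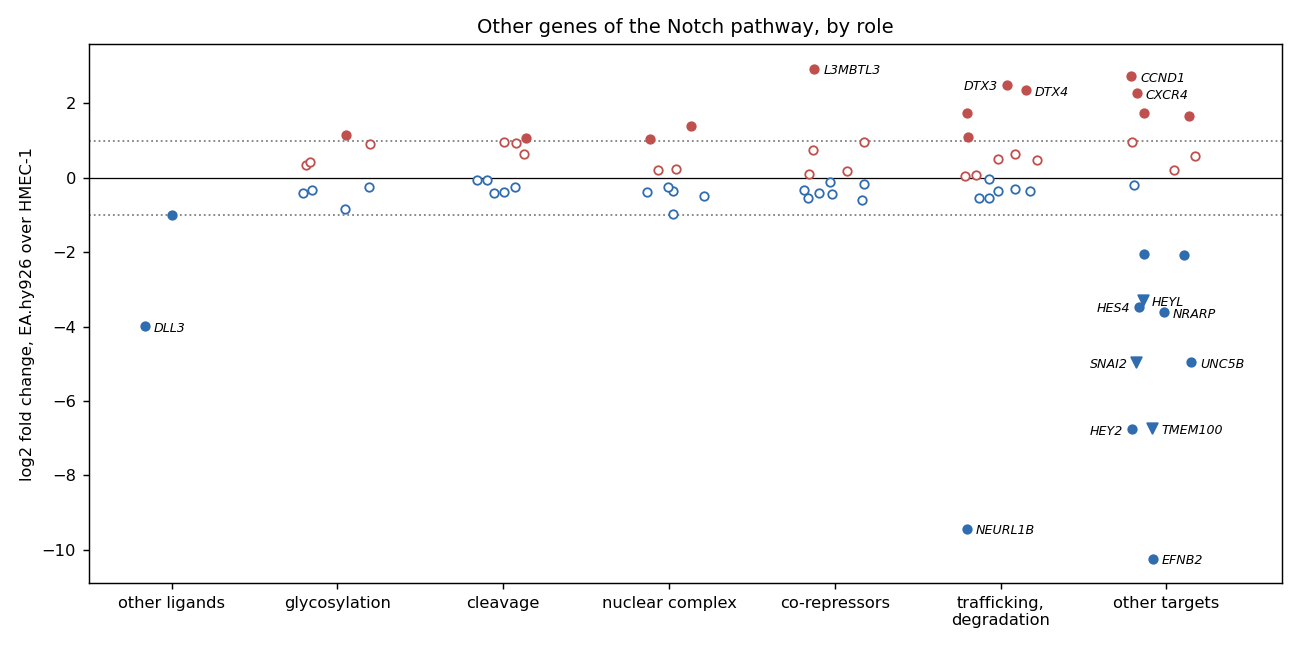
Log2FC (EA.hy926 over HMEC-1) of the 73 tested genes of the Notch pathway outside the 10, by role, with 1 point per gene and role. Filled points were called past both thresholds, triangles show the log2 of the lower bound for genes at 0 in every EA.hy926 library, and dotted lines mark a log2FC of 1 in each direction. Of the called targets 10 lie below and 4 above 0, and the called Deltex genes lie above it.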

How the data were processed

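The libraries, 5 from each cell line without treatment, were grouped by the line in the labels. The authors selected mRNA with oligo(dT), made cDNA from random hexamers, sequenced it on a NovaSeq 6000 and aligned the reads to GRCh38 with HISAT2. The values they deposited are raw counts per gene, and all 10 count columns were used. The paper's methods name HTSeq for the counting and the submitters' processing notes name featureCounts, together with fastp and DESeq2. The annotation release and the strand setting are not given in the sources used here, so overlapping genes are uncertain.

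Identifiers were matched to GENCODE 44 (56434 of 60448), and the overlap of exons was computed with bedtools 2.31.1. In R 4.3.3, edgeR 4.0.16 was used to filter genes (filterByExpr, minimum count 10, minimum total 15), to scale libraries by TMM factors and to fit the lines (glmQLFit, glmQLFTest) without covariates, with Benjamini-Hochberg adjustment over all 16310 genes. The alternatives were DESeq2 1.42.0, limma-voom (limma 3.58.1), RLE factors, library totals, other count filters, a replicate block, glmTreat, the longest transcript as gene length and each of the 10 libraries left out. With these totals 3 counts make 0.065 to 0.0903 CPM. The reads carry no molecular identifiers, so this floor reflects counting error alone. On simulated counts with 195 of 16048 genes changed by a factor of 3, edgeR called 195 of them and 2 others. Motifs were counted with Python 3.11.15.

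The Notch genes, pathway lists and marker lists were chosen with earlier results of these data known. Genes named were the 10 Notch genes, NOTCH2 copies, RBPJ, ADAM10, ADAM17, MAML1, the Fringe genes, HEY2, HEYL, NRARP, EFNB2, up to 4 called genes in each direction of each role list with at least 10 counts in every library of a line, the most abundant marker genes and those at 0 in a line, and the 3 genes most like JAG2. Others are said to be chosen after their values were seen, or are named for passing the count filter through a single line.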

Additional observations from a re-analysis of the deposited data

Results flagged for a closer look

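NOTCH4 in EA.hy926 replicate 4 stood apart from the other EA.hy926 libraries. Its level was 4.34 CPM, the nearest other library was at 3.45 CPM, and the ratio of this gap to the whole range was 0.821, above the critical value of Dixon's test of 0.71 for 5 samples. Of 20 groups of 5 libraries examined for the 10 Notch genes this was the only such value, and chance gives about 1 in 20. Without this library the log2FC of NOTCH4 was -2.20 in place of -2.12.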

How the results depend on the processing

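The log2FC of each of the 10 Notch genes kept its direction and its side of both thresholds under DESeq2, limma-voom, RLE factors, library totals, no count filter, the replicate block and with each library left out, and 6 were called in each. Against a log2FC of 1 (glmTreat) the same 6 were called, and NOTCH1, NOTCH2, JAG1 and HES1 had an adjusted p of 1. With at least 10 counts in every library NOTCH3 could not be fitted and 5 were called. That filter moved the calls among all genes to 3255 (1857 higher and 1398 lower) and among pathway genes to 16 of 64 tested (6 lower), since fewer genes entered. Without a filter 9312 genes were called (4975 higher and 4337 lower) of 33071. Library totals without factors moved the median log2FC of all genes to -0.145. With each library left out, calls ranged from 5945 to 6000 over all genes and from 24 to 26 over pathway genes. The replicate block gave 5786 calls, 5775 of them shared with the 5784 without it, and deviations of same-numbered libraries correlated at -0.0228 to 0.0389, so the numbers were not used as pairs. The length of the longest transcript moved the share of JAG1 in the ligand sum to 80.1% in EA.hy926 and that of NOTCH2 in the receptor sum to 55.1%. The counts of NOTCH3, DLL3, HEY2, HEYL and NEURL1B in EA.hy926 were too low for a precise fold.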

Other observations

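Lists of arterial and venous genes and of tip and stalk cell genes, the settings in which endothelial Notch is best known, were also examined. Of 14 arterial and venous genes 10 were tested and 7 called, beside 35.5% of all genes tested. The guidance and growth factor receptor genes NRP1 and NRP2 were higher in EA.hy926, with log2FC of 1.22 and 1.44, as were the BMP receptor gene ACVRL1 (1.76) and the venous transcription factor gene NR2F2 (1.20, at 668 ± 28.8 CPM against 291 ± 9.02 CPM). SOX17, UNC5B and EFNB2 were called lower. NR2F1, another gene of this list, was chosen after its values were seen. It passed with a lower level in EA.hy926 (log2FC -0.98, adjusted p = 1.4e-16, edgeR), just under the threshold on size. It was past that threshold with library totals (-1.12), with no count filter (-1.003) and without HMEC-1 replicate 1, 3 or 5 (-1.008 to -1.0007).

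Of 11 tip and stalk genes 10 were tested and 8 called (6 higher and 2 lower in EA.hy926), beside 19.1% called higher and 16.4% lower over all genes, with a median log2FC of 1.67 over the list. The VEGF receptor gene FLT1 had a log2FC of 2.32, ESM1 1.95 and APLN, the ligand of the apelin receptor, 1.85. FLT4, the VEGF-C receptor gene, had 0 to 2 counts in EA.hy926 against 352 to 478 in HMEC-1. It passed the count filter only through HMEC-1, which fixed its direction. CXCR4 (4 to 12 counts in HMEC-1) and ANGPT2 (5 to 12) passed only through EA.hy926, which fixed theirs. In the lymphatic list PROX1 had 332 to 454 counts in EA.hy926 against 0 to 3 in HMEC-1, while PDPN was at 0 in EA.hy926 and had 2935 to 3685 counts in HMEC-1, and 5 of the 6 genes were tested, 3 of them called higher and 2 lower in EA.hy926 (19.1% and 16.4% of all genes). These 5 genes had at most 8 counts in any library of the line where they were lower. They passed the count filter only through the other line, which fixed their direction. The summed CPM of the lymphatic list was 12.3 to 17.1 in EA.hy926 and 89.9 to 95.1 in the HMEC-1 libraries. A single gene made most of the sum in each line, PDPN in HMEC-1 (83.0 ± 2.68 CPM) and PROX1 in EA.hy926 (10.3 ± 1.31 CPM). In the epithelial list 9 of 20 genes were tested, and 3 were called higher and 3 lower in EA.hy926 (19.1% and 16.4% of all genes). Of those called lower, KRT19 (2 to 7 counts in EA.hy926) and CLDN7 (4 to 12) passed the count filter only through HMEC-1. Of those called higher, EPCAM (4 to 22 counts in HMEC-1) passed only through EA.hy926. This fixed the direction of these genes. The summed CPM of the epithelial list was 1353 to 1461 in EA.hy926 and 454.5 to 516.2 in the HMEC-1 libraries. KRT7 was the most abundant gene per length in both lines, and CDH1, CLDN3, ESRP1, GRHL2, NKX2-1, OVOL1 and RAB25 were at 0 in every EA.hy926 library, GRHL2 and NKX2-1 also in every HMEC-1 library. In HMEC-1 CDH1, ESRP1, OVOL1 and RAB25 had at most 2 counts in any library, and CLDN3 had 5 to 9.

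The EA.hy926 libraries with the highest DLL4 levels, replicates 1 and 3, were also the highest for KDR and VWF, genes chosen after their values were seen. KDR stood at 79.5, 55.2, 72.3, 56.4 and 54.8 CPM in replicates 1 to 5, and VWF at 71.6, 48.6, 62.5, 55.4 and 51.3 CPM. Over the lines KDR did not pass the test (log2FC -0.04, adjusted p = 0.611, edgeR), but it did with library totals (log2FC -0.18, adjusted p = 0.0302) and without EA.hy926 replicate 1 (log2FC -0.13, adjusted p = 0.0432). Without EA.hy926 replicate 2, 4 or 5 its log2FC was above 0, from 0.0056 to 0.0139, and it did not pass.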
